A study of Mus musculus with 14 samples.

Results

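The transcriptome of unstressed medial prefrontal cortex (mPFC) was described from the 5 arrays of naive mice, out of 14 arrays in the series. These 5 were chosen by their label alone, 1 mouse per array, and none of their values entered the choice. The mice were wild-type C57BL/6 animals moved between cages as the control condition of a social defeat experiment; the labels give neither age nor sex, and do not say which of 2 independent experiments a mouse came from. They were perfused with ice-cold buffer at 4 h after the last transfer, a 1.5 mm punch was taken, and every array received 35 ng of RNA of a single animal, labelled with Cy3. The 9 defeated mice, labelled susceptible or resilient, do not enter any value below.

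The mPFC is a layered frontal cortical area in which glutamatergic pyramidal neurons outnumber several classes of GABAergic interneurons, and in which monoamines, acetylcholine, steroid hormones and neuropeptides modulate both. A transmitter receptor is usually assembled from, or chosen among, members of a gene family, so the members transcribed limit what a tissue can assemble. A punch of cortex also takes in astrocytes, microglia, oligodendrocytes, blood vessels and, at the pial surface and along vessels, meningeal tissue.

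Signals are log2 intensities with each array's 75th percentile set to 0, so that 1 unit is a 2-fold difference, and values are given as mean ± SD over the 5 mice (n = 5) unless single arrays are listed in the order naive 1 to naive 5. A gene is represented by its brightest probe. Because the brightness of a probe also depends on its sequence, genes were placed in bands (top 1%, top 5% and top 25% of all genes by mean signal, detected lower, above background on some arrays, above background on none) and their order within a band was not read as an order of transcript amount. The bands began at mean signals of 6.98, 4.77 and 1.66. The scanner software called 62.3% of the 20880 genes well above background on all 5 arrays (13001 genes) and 23.5% on none (4911 genes). The remaining 2968 genes lay between, and 1994 of them were above background on at least both arrays of the second scan day, naive 4 and naive 5. On that day the arrays were brighter, with a 75th percentile at 8.44 on the log2 scale against 7.20 for the arrays of the first day, and 58.7% and 60.7% of spots were well above background against 48.0% to 52.4%. Absence from naive 1, naive 2 and naive 3 alone was therefore not read as a difference between mice. Counts of list members below are to be read beside the shares of all genes, 62.3% on all 5 arrays and 23.5% on none.

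The markers of the labelled tissue were present. All 14 neuronal markers were above background on 5 of 5 arrays, 10 of them in the top 5% or above. Thy1, a surface glycoprotein of projection neurons, was at 7.34 ± 0.10, and Syt1, the calcium sensor of synaptic vesicles, at 7.34 ± 0.16. The deep-layer cortical list was on 5 of 5 arrays for 12 of 12 members, led by the thyroid hormone binding protein Crym (5.42 ± 0.23) and the transcription factor Tbr1 (4.94 ± 0.21, probes over 3 units apart). The upper-layer list was complete as well, at 8 of 8, but 6 of its members lay below the top 25%, among them Cux2 at -0.48 ± 0.36 and Rasgrf2 at -0.57 ± 0.24. Of the markers of neighbouring or distant regions, the striatal genes Isl1 and Ido1, the dentate gyrus gene Prox1, the cerebellar subunit gene Gabra6 and Eomes, Dsp and Tdo2 were above background on no array. In the list of hippocampal, thalamic, hypothalamic, cerebellar and olfactory bulb genes, 12 of 21 were nevertheless on 5 of 5 arrays, with Zic1 in the top 25% at 3.02 ± 0.28. Ppp1r1b, a phosphatase inhibitor rich in striatum and also known from cortex, was at 2.82 ± 0.14, and 10 of 14 genes of the striatal list were on 5 of 5 arrays. Their part in the values below was not tested.

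Among the 30 brightest genes were 9 ribosomal protein genes, such as Rps14 (9.82 ± 0.56), Rpl37a (9.22 ± 0.49) and Rpl41 (9.02 ± 0.40), and the cytochrome oxidase subunit genes Cox6a1 (9.65 ± 0.36) and Cox8a (9.24 ± 0.41). Aldoc, the brain and astrocyte aldolase, stood at 9.26 ± 0.17 and the iron store gene Fth1 at 9.15 ± 0.29. Cpe, the carboxypeptidase that trims peptide hormones, and Pebp1, a kinase inhibitor, completed the familiar brain transcripts, at 9.47 ± 0.28 and 9.37 ± 0.54. Each of the 30 had a lower mean on the second scan day than on the first, by log2 differences from -1.10 (Glrx2) to -0.21 (Aldoc). Their SDs therefore include a shift shared between scan days, whose cause was not tested.

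The same end of the ranking showed where single probes cannot be taken at their word. Of the 30 brightest genes 22 had several probes, and in 17 the brightest and the dimmest lay over 3 log2 units apart. Glrx2, a mitochondrial glutaredoxin and the brightest gene of all, had probes at means of 10.02, 3.15 and -0.88. Slc10a1, a bile acid carrier of hepatocytes, had 1 probe at a mean of 9.45 and another at -5.35 that was above background on no array, and Elk1, a transcription factor, had probes at 9.65 and -1.61. Cpe and Pebp1 were also among genes with probes that far apart. Over all 5507 genes with several probes the median distance between the brightest and the dimmest was 2.01, and 619 genes had 1 probe on 5 of 5 arrays and another on none. When probes were averaged, 12 of the 30 brightest genes were kept, and when the dimmest probe was used, 10 were kept. Below, "probes apart" marks a gene whose brightest and dimmest probe lay over 3 units apart, and what their bright probes bind was not tested.

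**Figure D1:**
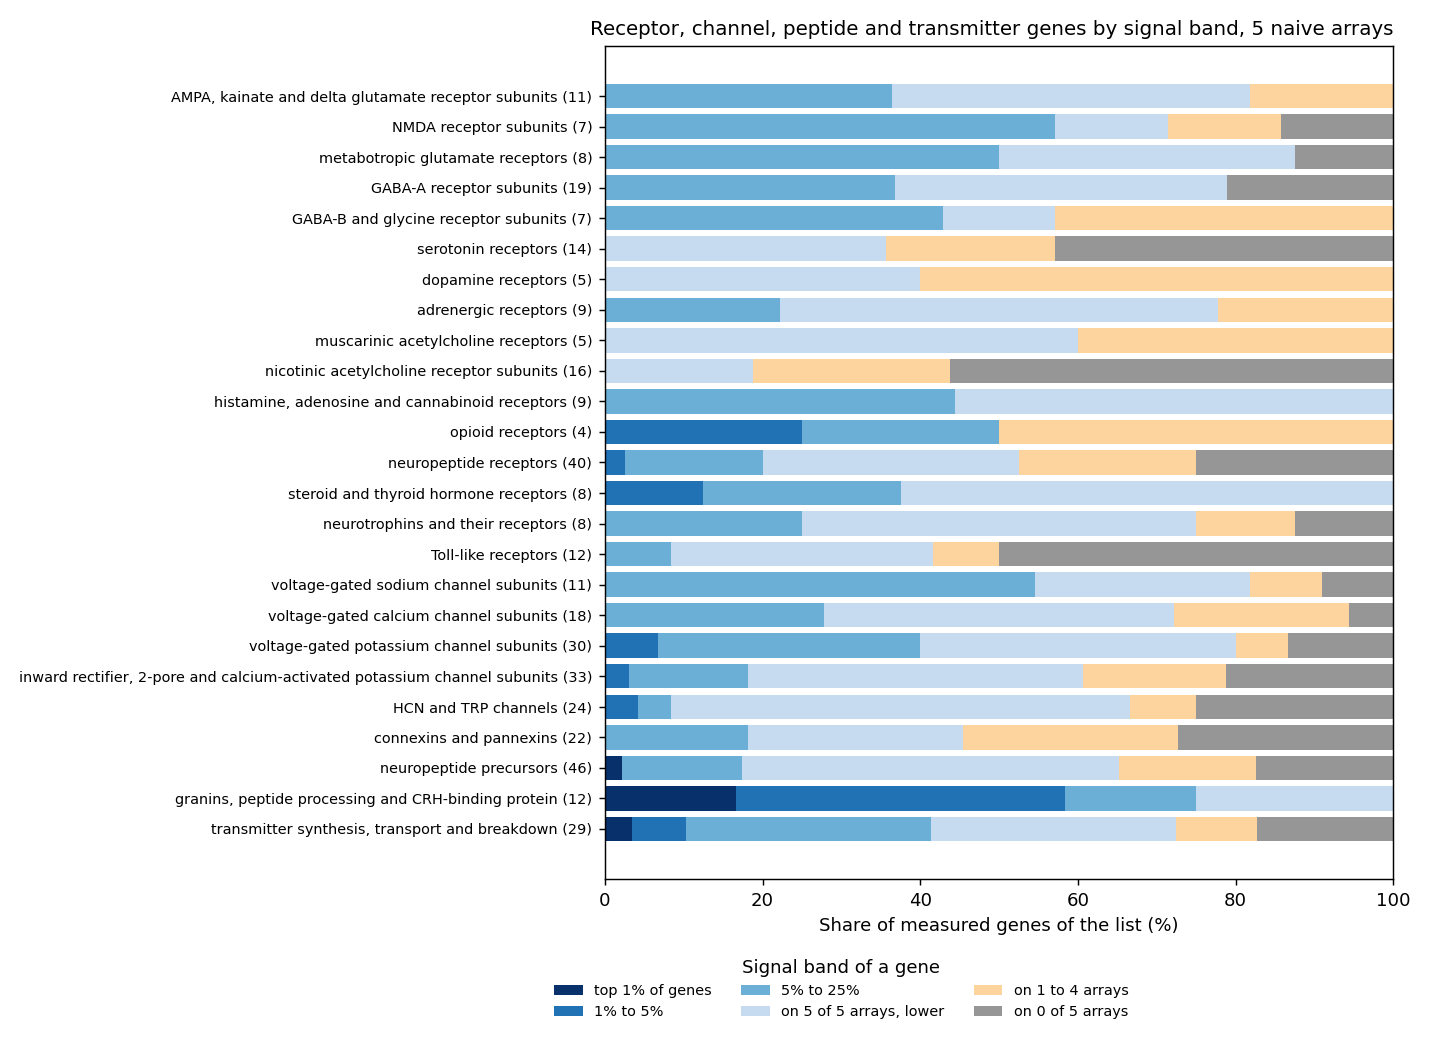
Share of the measured genes of each list (horizontal axis, %) in each signal band over the 5 naive arrays; the number of genes measured stands after each name, and colours run from the top 1% of genes (dark blue) to genes above background on 0 of 5 arrays (grey). Peptide-processing genes have no grey part, whereas 9 of 16 nicotinic subunits and 6 of 12 Toll-like receptors were above background on no array.

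Ionotropic glutamate receptors were broadly detected. Of 11 AMPA, kainate and delta subunits, 9 were on 5 of 5 arrays and none was on 0, against 62.3% and 23.5% of all genes. The AMPA subunit gene Gria1 read 3.24, 3.31, 3.59, 3.39 and 3.28, a spread of 0.14 that placed it in the top 25%, and the kainate subunit genes Grik5 (3.53 ± 0.27) and Grik4 (2.81 ± 0.30) lay in the same band. Gria2, which makes AMPA receptors impermeable to calcium, was detected lower, at 0.17 ± 0.15, and the delta subunit Grid1 was above background on 4 arrays. Among NMDA receptor genes the obligatory subunit Grin1 (2.03 ± 0.23, probes over 3 units apart) and the adult forebrain subunits Grin2a (1.97 ± 0.40) and Grin2b (2.88 ± 0.20) were in the top 25%, Grin2d was above background on 1 array and Grin3b on none. Grin2c read 2.47, 2.59, 2.68, 3.29 and 3.22, and Grin2a on its brightest probe 2.35, 2.08, 2.31, 1.46 and 1.66. On these probes the arrays of the second scan day were the 2 highest for Grin2c and the 2 lowest for Grin2a. The other Grin2a probe lacked that order, at -0.53, -0.57, -1.16, -0.81 and -0.55, with naive 3 lowest. Of the metabotropic receptors, 7 of 8 were on 5 of 5 arrays; Grm5, coupled to phospholipase C, was brightest at 4.62 ± 0.52 with its other probes at means of 0.02 and -0.02, and Grm6, the receptor of retinal bipolar cells, was on none.

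Of 19 GABA-A subunits 15 were on 5 of 5 arrays, with the alpha subunit gene Gabra3 (4.37 ± 0.27, probes apart) and the beta subunit gene Gabrb2 (3.38 ± 0.18) in the top 25%. The extrasynaptic subunit gene Gabrd was at 3.52 ± 0.21 and Gabra5 at 0.94 ± 0.08. Gabra6, Gabrr3, Gabrq and Gabre were above background on no array, while the rho subunit genes Gabrr2 (1.40 ± 0.21) and Gabrr1 (-0.75 ± 0.29), known from retina, were on 5 of 5. The largest spread among the detected subunits belonged to Gabrp, which is known mainly from outside the brain (-2.0, -1.99, -2.15, -3.72 and -3.54), and to Gabrb1 (1.66, 1.35, 0.83, 2.42 and 2.6). In both genes the values of the 2 scan days did not overlap, in opposite directions. Both subunits of the GABA-B receptor, Gabbr1 (4.71 ± 0.33) and Gabbr2 (2.6 ± 0.17, probes apart), were in the top 25%, as was Glrb, the glycine receptor subunit that binds the scaffold gephyrin (2.19 ± 0.13). The adult spinal subunit gene Glra1 read -1.22 on naive 1 and between -6.37 and -5.00 on the others.

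No serotonin receptor reached the top 25%, 5 of 14 were on 5 of 5 arrays and 6 were on none, namely Htr1b, Htr1d, Htr2b, Htr3b, Htr5a and Htr5b. The receptor genes Htr2c (1.11 ± 0.12, probes apart) and Htr2a (0.55 ± 0.33) were among those on 5 of 5 arrays, and Htr1a was above background on 1 array. For dopamine, Drd1 read -0.64, -1.47, -1.80, -1.35 and -1.45, Drd4 was at -1.95 ± 0.26, and Drd2 was above background on 4 arrays. Adrenergic receptors were detected more often, 7 of 9 on 5 of 5 arrays, with Adra1b (3.14 ± 0.21, probes apart) and Adra2c (2.92 ± 0.16) in the top 25%. Within that family Adra1d varied most, at 0.66, -1.91, -2.11, -1.07 and -0.58; naive 1 was the highest. The muscarinic receptor Chrm1, typical of pyramidal cells, was at 1.64 ± 0.17 (probes apart), with 3 of 5 muscarinic genes on 5 of 5 arrays. Of the nicotinic subunits 3 of 16 were on 5 of 5 arrays (Chrnb2 at 0.22 ± 0.31, Chrna2 at -0.43 ± 0.32 and Chrnb4 at -2.45 ± 0.21) and 9 were on none, while Chrna7 and Chrna4, the subunits best known from cortex, were above background on 4 and 2 arrays.

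All 9 measured histamine, adenosine and cannabinoid receptors were on 5 of 5 arrays. Cnr1, the presynaptic cannabinoid receptor, was at 4.53 ± 0.18, Adora1, the inhibitory adenosine receptor, at 4.29 ± 0.19, and Hrh3, the histamine autoreceptor, at 4.46, 4.19, 5.13, 4.44 and 4.43, where naive 3 was the highest. The opioid family was limited by its probes: Oprm1 had 1 probe at 6.00, 6.07, 5.95, 5.10 and 5.29 and another above background on no array, so that its place in the top 5% rests on 1 probe. Oprl1, the nociceptin receptor, was at 3.42 ± 0.12 with probes apart, Oprd1 was above background on 4 arrays and Oprk1 on 2. Tacr2, a tachykinin receptor known from smooth muscle, showed the same split as Oprm1, with 1 probe at 5.44, 5.61, 5.40, 4.54 and 4.59 and another on no array.

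Peptide receptors as a family were detected in 21 of 40 cases on 5 of 5 arrays, and 10 were on none. Ntsr2, a neurotensin receptor of astrocytes, was at 4.21 ± 0.17, the somatostatin receptors Sstr5 and Sstr3 at 3.37 ± 0.15 and 2.66 ± 0.26, and Npy1r at 2.16 ± 0.19. Crhr1, the receptor of the stress peptide CRH, was at 1.50 ± 0.22 with probes apart, Crhr2 at -0.77 ± 0.36 and the oxytocin receptor gene Oxtr at -0.24 ± 0.26. The vasopressin receptors Avpr1a, Avpr1b and Avpr2, the galanin receptors Galr1 and Galr2 and the orexin receptor Hcrtr2 were above background on no array. Adcyap1r1, the receptor of PACAP, varied most, at 1.60, 1.56, 0.94, 2.47 and 2.83, with the arrays of the second scan day above the others.

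All 8 steroid and thyroid hormone receptors were on 5 of 5 arrays. Nr3c1, the glucocorticoid receptor through which stress hormone acts, read 3.64, 3.62, 3.81, 3.67 and 3.71 on its brightest probe. The SD of that probe was 0.08, against a median SD of 0.24 over all genes on 5 of 5 arrays. Its other probe read 1.83, 1.81, 1.86, 1.25 and 1.33, lower on both arrays of the second scan day. Nr3c2, the mineralocorticoid receptor, was detected lower at -1.28 ± 0.11, and Thra, a thyroid hormone receptor, reached the top 5% at 5.48 ± 0.19 with probes apart. Esr1, an estrogen receptor, was at -2.63 ± 0.16. Ntrk2, the receptor of BDNF, was at 4.42 ± 0.22, and Bdnf itself at 0.17 ± 0.34. Of 12 Toll-like receptors, sensors of microbial and damage signals, 5 were on 5 of 5 arrays and 6 on none. Tlr9 was in the top 25% at 2.80 ± 0.10, and Tlr4 read -3.04, -3.25, -2.46, -1.81 and -2.97.

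Voltage-gated channels reached into the top 5%. The sodium channel genes Scn2a (4.74 ± 0.35, probes apart) and Scn2b (4.47 ± 0.25), an alpha subunit of axons and an auxiliary subunit, were in the top 25%, and Scn8a and Scn1a, both with probes apart, were at 2.47 ± 0.25 and 2.14 ± 0.27. Scn10a, a channel of sensory neurons, was on no array. Of the potassium channels Kcnh3 (5.70 ± 0.28), a forebrain channel of the ether-a-go-go family, Kcna6 (5.13 ± 0.17, probes apart) and the inward rectifier Kcnj4 (4.99 ± 0.35) reached the top 5%. Kcnj10, which buffers potassium in astrocytes, was at 4.69 ± 0.21. Kcna7 read 4.62, 4.80, 4.46, 3.10 and 3.17 on its brightest probe and 1.40, 2.03, 2.12, 1.11 and 1.42 on the other.

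Calcium channel genes were detected on 5 of 5 arrays in 13 of 18 cases, led by the auxiliary subunits Cacnb3 (3.99 ± 0.20) and Cacna2d1 (3.44 ± 0.24); the pore subunit Cacna1a was at 2.07 ± 0.35, Cacna1c was above background on 2 arrays and the retinal Cacna1f on none. Hcn2, a pacemaker channel gated by cyclic nucleotides, read 5.79, 5.92, 5.88, 5.31 and 5.06, whereas Hcn4 was on no array. Of 24 HCN and TRP channels 6 were on none (25%, near the 23.5% of all genes), among them Trpv1, the heat and capsaicin channel. Among gap junction genes, Gjb6 of astrocytes was at 4.09 ± 0.45 and Gjb1 of oligodendrocytes at 1.55 ± 0.56. Of 22 connexins and pannexins 6 were on none (27.3%, near the 23.5% of all genes). Gjb2, a connexin of leptomeninges, read 1.61, 0.73, 2.48, 2.06 and 1.46.

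Neuropeptide precursors spanned the whole range of the array. Of 46 genes 30 were on 5 of 5 arrays (65.2%, near the 62.3% of all genes), 8 on some and 8 on none. Cck, made by pyramidal cells and by a class of interneurons, was the sole precursor in the top 1%, at 8.11, 8.16, 8.55, 8.17 and 8.26. Below it stood Sst (4.59, 4.59, 4.17, 4.83 and 4.59), which marks an interneuron class, Grp (3.12 ± 0.23), Cort (2.42 ± 0.21), Penk (2.39 ± 0.27), Npy (2.31 ± 0.33) and Tac1 (2.22 ± 0.33). Vip, of a further interneuron class, was at 1.49 ± 0.37, and Crh, the hypothalamic and interneuron stress peptide, at -0.80, -0.71, -0.58, 0.04 and -0.21. Pdyn, the dynorphin precursor, was above background on 1 array, and Gnrh1, Ucn2, Ucn3, Rln3, Calcb, Nms, Nps and Iapp, most of them made outside cortex, were on none. Hypothalamic precursors were not uniformly absent: Oxt (-2.44 ± 0.20), Hcrt (-1.97 ± 0.18) and Ghrh (-0.68 ± 0.36) were above background on 5 of 5 arrays, near the dim end, while Avp was on 1.

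The machinery that packs and cuts these peptides was detected throughout. All 12 genes of the granin and processing list were on 5 of 5 arrays and 7 of 12 were in the top 5% or above, against 1 of 46 precursors. Besides Cpe these were Pcsk1n, an inhibitor of prohormone convertase 1 (7.0, 7.10, 7.41, 7.11 and 7.14), the granins Chgb (5.76 ± 0.31) and Scg3 (5.51 ± 0.24), Vgf (5.22 ± 0.30), the convertase chaperone Scg5 (5.17 ± 0.12) and the convertase Pcsk2 (4.92 ± 0.19). Scg2 was at 3.84 ± 0.24. The other convertase, Pcsk1, was detected lower at -0.74 ± 0.21, as was Crhbp, the binding protein of CRH, at -0.64, -0.76, -1.40, -0.08 and -0.04.

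**Figure D2:**
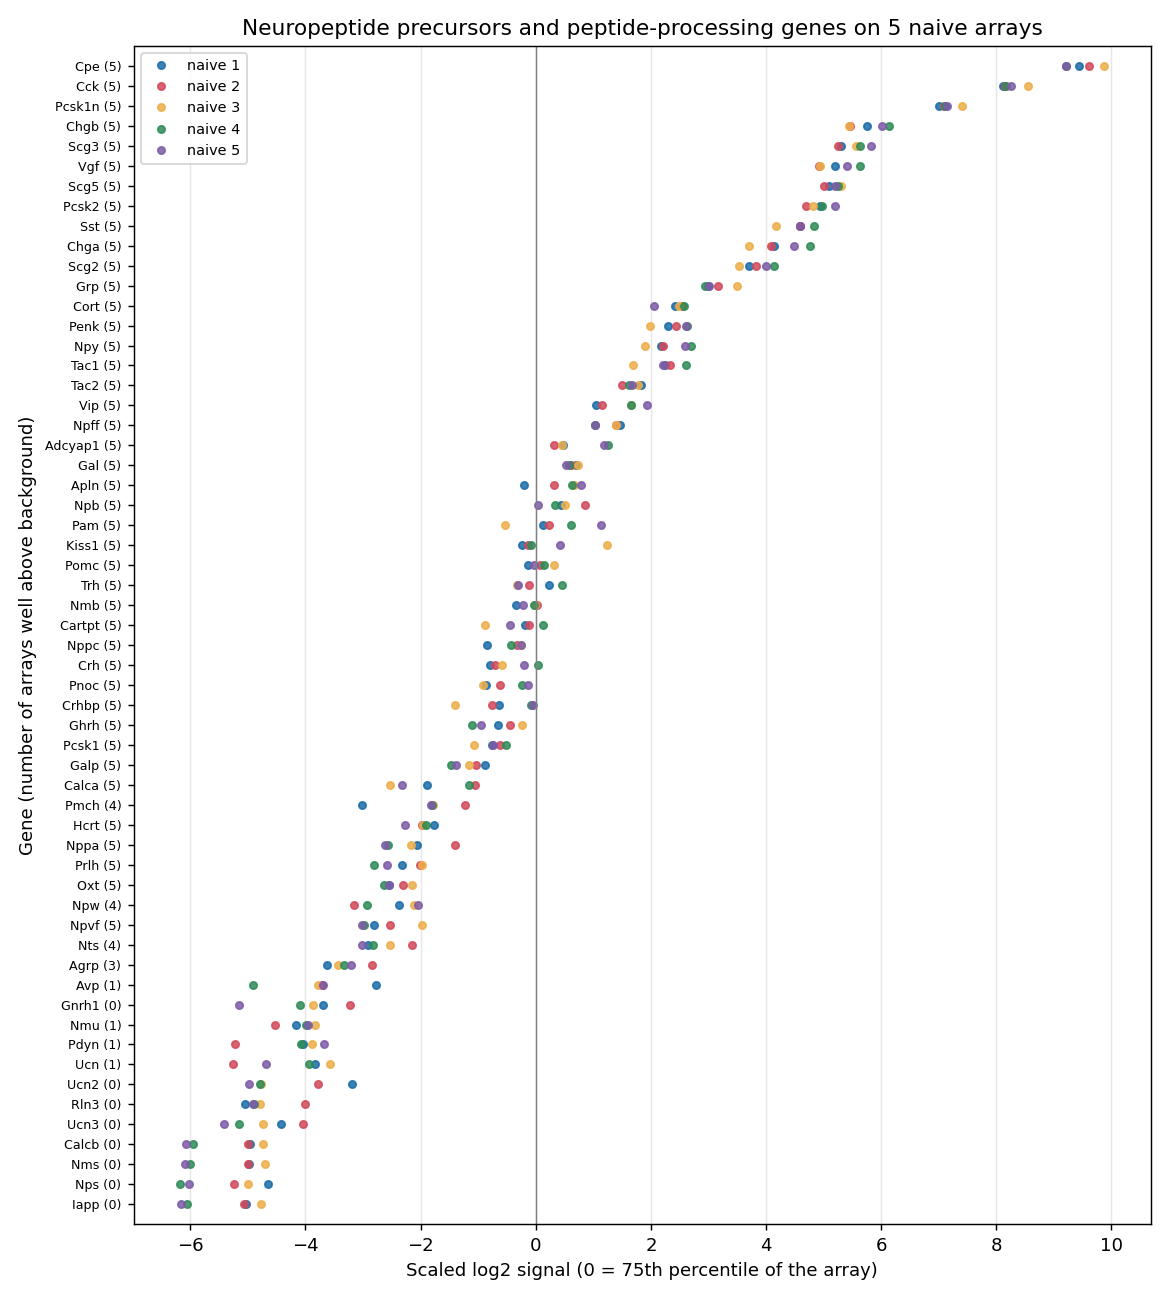
Scaled log2 signal (horizontal axis, 0 at the 75th percentile of the array) of the neuropeptide precursors and peptide-processing genes, 1 row per gene and 1 point per naive array, with the number of arrays well above background after each name. Cpe, Cck and Pcsk1n lie at the bright end, and the genes above background on 0 of 5 arrays fill the dim end, where the points of naive 4 and naive 5 are lowest.

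Several secretory genes are textbook targets of cyclic AMP signalling through the response element TGACGTCA, which reads the same on both strands, and promoters that carry it are shown for precursor and processing genes above background on 5 of 5 arrays. The letters were searched in RefSeq promoters of build GRCm38.p6, from 250 bases before to 50 after each start; 35 of 46 precursors and 10 of 12 processing genes were in that table. The element was present in 588 of 32851 promoters of all genes (1.79%), in 3 of 35 precursors (Sst, Cartpt and Ucn, the last above background on 1 array) and in 3 of 10 processing genes (Scg2, Chgb and Pcsk1). By gene, it was present for 364 of 10380 genes on 5 of 5 arrays (3.51%) and for 35 of 3885 genes on none (0.901%). The 150 bases before the start are printed 5′ to 3′ on the gene's strand with the element in capitals; in Sst (chr16:23890845-23890994, minus strand) it lies at -48 to -41, in Scg2 (chr1:79440027-79440176, minus strand) at -68 to -61, in Chgb (chr2:132781492-132781641, plus strand) at -72 to -65, in Pcsk1 (chr13:75089707-75089856, plus strand) at -78 to -71 and in Cartpt (chr13:99900684-99900833, minus strand) at -112 to -105.
Sst: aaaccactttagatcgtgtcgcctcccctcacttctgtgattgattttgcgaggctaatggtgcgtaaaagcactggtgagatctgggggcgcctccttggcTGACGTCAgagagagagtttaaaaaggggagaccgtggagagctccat
Scg2: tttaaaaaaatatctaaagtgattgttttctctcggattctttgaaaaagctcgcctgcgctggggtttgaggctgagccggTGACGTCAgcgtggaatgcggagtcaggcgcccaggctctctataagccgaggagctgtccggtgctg
Chgb: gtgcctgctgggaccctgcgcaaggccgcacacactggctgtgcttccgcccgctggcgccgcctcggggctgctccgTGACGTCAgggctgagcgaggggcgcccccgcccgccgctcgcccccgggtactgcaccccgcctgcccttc
Pcsk1: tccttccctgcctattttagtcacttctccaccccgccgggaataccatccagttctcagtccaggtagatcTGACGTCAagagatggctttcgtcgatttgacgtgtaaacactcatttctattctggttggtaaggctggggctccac
Cartpt: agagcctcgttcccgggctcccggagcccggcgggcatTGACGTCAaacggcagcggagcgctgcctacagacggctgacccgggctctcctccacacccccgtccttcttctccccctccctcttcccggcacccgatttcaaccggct
Sst, Scg2 and Chgb were in the top 25% or above, and Pcsk1 and Cartpt were detected lower, Cartpt at -0.19, -0.11, -0.87, 0.13 and -0.45. Of the same lists 11 of 35 precursors and 2 of 10 processing genes held the letters TATAAA of the TATA box, searched on both strands. The share over all promoters was 13.6%. By gene, the letters were present for 1028 of 10380 genes on 5 of 5 arrays (9.9%) and for 944 of 3885 genes on none (24.3%). A match describes the letters of the window and is neither a binding site nor a cause.

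The list of transmitter synthesis, transport and breakdown had 21 of 29 genes on 5 of 5 arrays and 5 on none. These shares, 72.4% and 17.2%, stand beside 62.3% and 23.5% of all genes. Glul, glutamine synthetase of astrocytes, was in the top 1% at 7.08 ± 0.26, and the astrocyte glutamate transporters Slc1a2 and Slc1a3 were at 5.09 ± 0.17 and 4.75 ± 0.25. The GABA synthesis genes Gad2 and Gad1 were at 2.6 ± 0.05 and 2.31 ± 0.36, and Slc32a1, the vesicular GABA transporter, was at 4.98 ± 0.16 on 1 probe and at a mean of -1.79 on another. Slc17a7, the vesicular glutamate transporter of cortex, read 2.20, 1.72, 0.97, 2.88 and 3.06, with naive 3 lowest and the second scan day highest. Tph2, Slc6a4, Slc6a3, Slc6a2 and Slc18a1, which are transcribed in the cell bodies of monoamine neurons or endocrine cells, were above background on no array. Other monoamine genes of the list were detected: Ddc was on 5 of 5 arrays at a mean of -0.14 (probes apart), and Slc18a2 was on 4. Th, the first enzyme of catecholamine synthesis, was at 1.40 ± 0.20, with Dbh on 2 arrays.

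Astrocyte markers were the steadiest of the glial lists. All 14 were on 5 of 5 arrays, and besides Aldoc and Glul the top 5% held Mlc1 (6.41 ± 0.18), S100b (5.87 ± 0.31) and Slc1a2. Gfap was at 1.84 ± 0.15 (probes apart) and Aqp4, the water channel of astrocyte endfeet, at 2.47 ± 0.15. The median SD of the list was 0.24, equal after rounding to that of all genes, and 0 of 14 exceeded the 90th percentile of SD over all genes, 0.49, a limit that by construction 10% of genes pass. Microglia were detected through 16 of 16 genes, with Siglech (6.90 ± 0.41), Itgam (5.64 ± 0.40) and Csf1r (5.42 ± 0.25) in the top 5%, each with probes over 3 units apart. The homeostatic genes Cx3cr1 (3.62 ± 0.46, probes apart) and Trem2 (2.84 ± 0.17) were in the top 25%, and Tmem119 and P2ry12 were detected lower at 1.61 ± 0.36 and 0.76 ± 0.37. Of the microglial genes 2 of 16 passed the SD limit.

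Oligodendrocyte markers differed most between mice. Mal, a myelin proteolipid, read 2.97, 5.10, 3.07, 3.78 and 3.02, and Mobp, a further myelin protein, 0.64, 3.34, 0.50, 1.89 and 0.80 (probes apart). Mag, which lies next to the axon, read 0.65, 2.73, 0.09, 1.33 and 0.92. In each, naive 2 was the highest by more than 1 unit and naive 4 came next. Of 13 oligodendrocyte genes on 5 of 5 arrays, 11 were highest on naive 2, where 10.9% of all genes were highest, and 10 of 13 exceeded the SD limit. The list median was 0.70, 2.85, 0.92, 1.89 and 0.92, and its median SD of 0.81 fell to 0.40 without naive 2. Mbp stood apart from the list on its brightest probe (4.14 ± 0.21). Another Mbp probe read 0.74, 3.24, -0.07, 2.22 and 1.64, with naive 2 highest and naive 4 next, as in Mal and Mobp. The dimmest Mbp probe read 0.83, 0.68, 0.44, 0.39 and 0.38, highest on naive 1, and lacked that pattern. In such bulk tissue more cells of a type and more RNA per cell cannot be told apart. Oligodendrocyte precursors did not share the pattern: Pdgfra was at 0.77 ± 0.38 and 1 of the 6 precursor genes on 5 of 5 arrays was highest on naive 2.

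**Figure D3:**
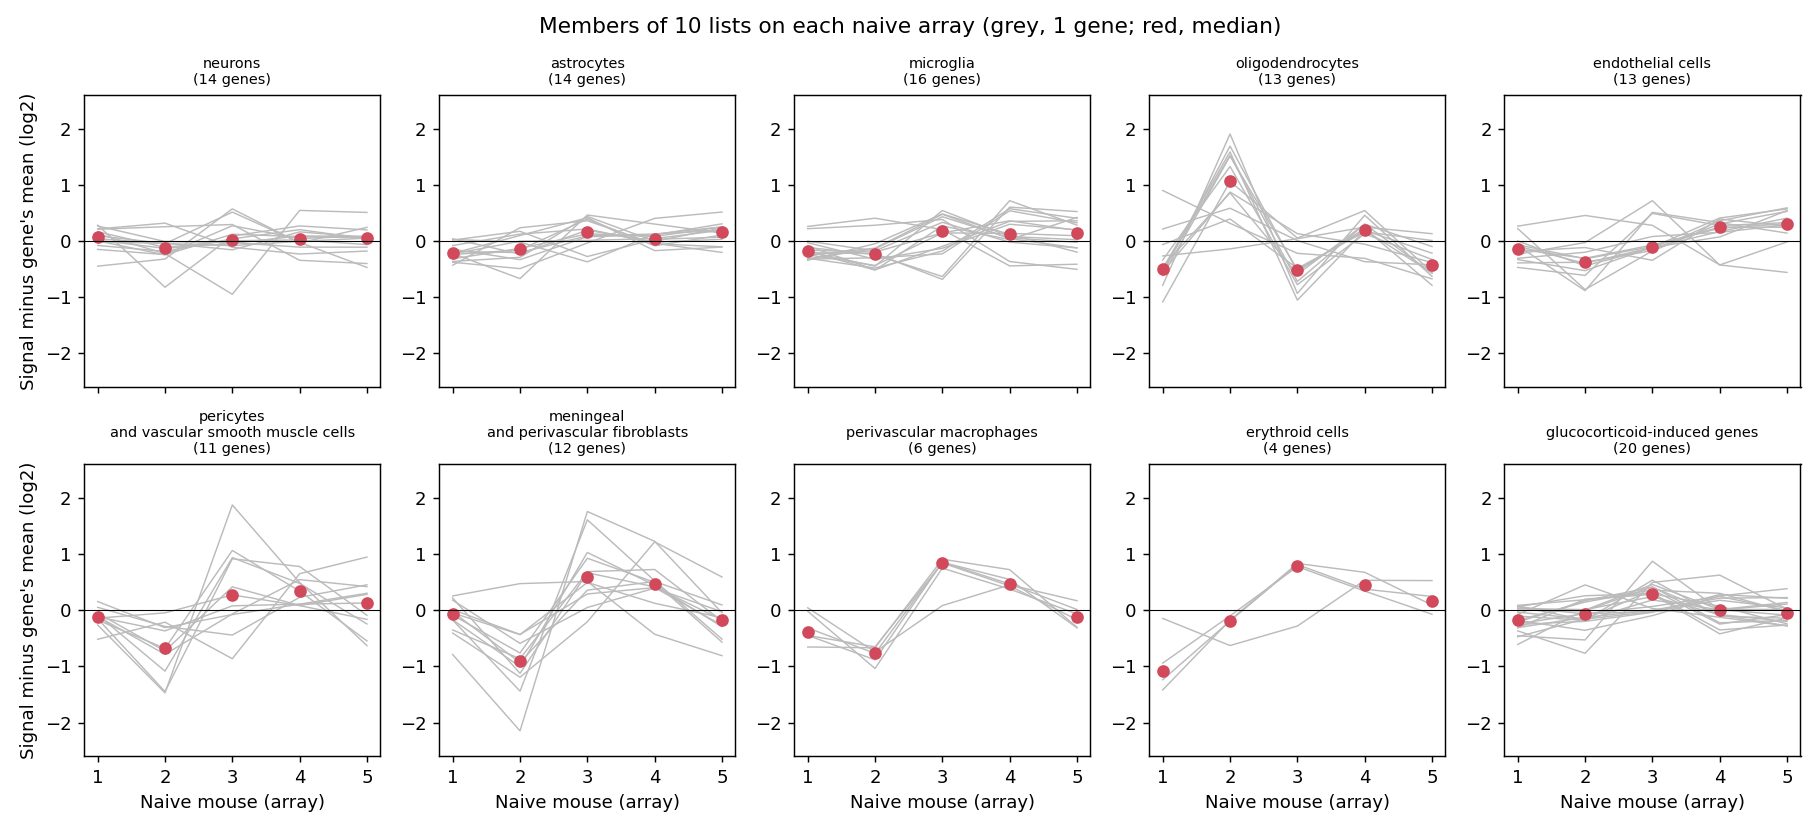
Signal minus each gene's own mean (vertical axis, log2) on the 5 naive arrays (horizontal axis) for 10 gene lists; grey lines join the values of 1 gene, red points are the median of the list, and the arrays have no order. Oligodendrocyte genes peak on naive 2, while meningeal fibroblast, pericyte and perivascular macrophage genes are lowest there.

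Meningeal and vessel-associated genes were lowest, not highest, on naive 2; on naive 4 both the fibroblast and the oligodendrocyte lists were second highest by list median. Ptgds, the prostaglandin synthase of leptomeninges and among the top 1% of genes, read 8.38, 7.11, 10.16, 9.08 and 8.04, and Ogn, a matrix proteoglycan, -0.51, -1.87, 2.03, 1.50 and 0.23. Naive 3 was highest and naive 2 lowest in both, although those arrays shared a slide and a scan day. Of 12 fibroblast genes 11 were lowest on naive 2, against 24% of all genes, and 9 of 12 exceeded the SD limit. The list median was 0.50, 0.05, 1.87, 1.62 and 0.68. Perivascular macrophage genes went the same way: all 6 on 5 of 5 arrays were lowest on naive 2, with the scavenger receptor Mrc1 at -0.96, -1.98, -0.19, -0.57 and -1.01 and the platelet factor Pf4 at 0.78, 0.32, 1.95, 1.64 and 0.78. Cd163 of the same list was on no array. Of 11 genes of pericytes and smooth muscle 8 were lowest on naive 2, among them the contractile genes Acta2 (1.84, 0.84, 2.86, 2.40 and 1.68) and Tagln (2.75, 2.24, 3.99, 3.26 and 2.38), and 6 of 11 exceeded the SD limit.

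Endothelial genes were detected on 5 of 5 arrays in 13 of 17 cases, with Ly6c1 (4.43 ± 0.26), the VEGF receptors Kdr (4.27 ± 0.46, probes apart) and Flt1 (3.52 ± 0.31), the tight junction gene Cldn5 (3.04 ± 0.32) and the glucose transporter Slc2a1 (3.01 ± 0.24) in the top 25%. Their list median was 1.82, 1.59, 1.79, 2.32 and 2.55, higher on both arrays of the second scan day. Of these 13 genes 8 were lowest on naive 2, as were 8 of 16 microglial genes. Haemoglobin genes were above background in the perfused tissue: Hba-a2 read 1.56, 2.6, 3.61, 3.17 and 3.04 and Hbb-bt -1.78, -0.53, 0.48, 0.32 and -0.27, with naive 1 lowest in both. The red cell gene Alas2 was on no array. Of 15 leukocyte genes 7 were on 5 of 5 arrays, the neutrophil genes Elane (1.58 ± 0.27) and Camp (-1.52 ± 0.16) among them. The neutrophil transcripts S100a8 and Ngp and the B cell gene Ms4a1 were on none, and Cd4 and Nkg7 were in the top 25% on 1 probe each with another probe over 3 units lower. Choroid plexus genes were near the limit, with Ttr at -1.77 ± 0.72, and 4 of 12 were on 5 of 5 arrays.

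Genes that respond to activity or hormones were mostly detectable in the naive mice. Of 25 immediate early genes 18 were on 5 of 5 arrays (72%, near the 62.3% of all genes). Jund was in the top 5% (5.30 ± 0.25), and Jun (3.63 ± 0.22), Nr4a1 (3.18 ± 0.29), Egr1 (2.5 ± 0.28) and Arc (2.15 ± 0.36) were in the top 25%. Fos itself was above background on 3 arrays (-3.25, -2.16, -2.73, -2.23 and -2.57) and Junb on 2. The glucocorticoid-induced list was on 5 of 5 arrays for all 20 members. The metallothioneins Mt1 (8.56, 9.08, 8.66, 8.50 and 8.35) and Mt2 (7.61, 8.0, 8.23, 7.74 and 7.55) were in the top 1%. Fkbp5, a chaperone of the glucocorticoid receptor, read 1.83, 1.75, 2.47, 1.83 and 1.79, and Sgk1, a kinase, 1.1, 1.42, 1.93, 1.87 and 1.54; naive 3 was highest in both. Of the 20 genes 19 were higher on naive 3 than on naive 2, against 65.7% of all genes. Clock genes were on 5 of 5 arrays in 16 of 17 cases, with Tef (7.39 ± 0.13), Dbp (5.82 ± 0.19) and Cry2 (4.79 ± 0.18) in the top 5% or above, and Cry1 on 2 arrays. The list of cytokines and chemokines had 12 of 21 genes on no array, among them Il1b, Il6, Tnf and Il1a, while Cx3cl1, the neuronal ligand of the microglial receptor, was in the top 5% at 6.25 ± 0.25 and Il34, a neuronal ligand of Csf1r, at 3.50 ± 0.12.

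Spread between naive mice was small for most genes. Over 12985 genes whose probe was above background on 5 of 5 arrays the median SD was 0.24, the quartiles were 0.17 and 0.34, and 89 genes had an SD over 1. The neuronal stathmin Stmn3 was the steadiest of the bright genes at 6.76, 6.73, 6.70, 6.72 and 6.72, followed by Mapt, the axonal tau protein (6.21 ± 0.03), Rrp1 (5.42 ± 0.03) and Gdap1l1 (4.68 ± 0.03). Neuronal markers had a median SD of 0.18 and 1 of 14 exceeded the limit. Of the lists with at least 4 such genes, oligodendrocyte, erythroid, meningeal, perivascular macrophage and pericyte genes had the 5 highest median SDs, between 0.53 and 0.81. The order rests on single arrays: the erythroid value was 0.71 and fell to 0.446 without naive 1, under the endothelial 0.451, and the oligodendrocyte value fell to 0.399 without naive 2, under those of the NMDA subunits (0.405) and the precursors (0.417).

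**Figure D4:**
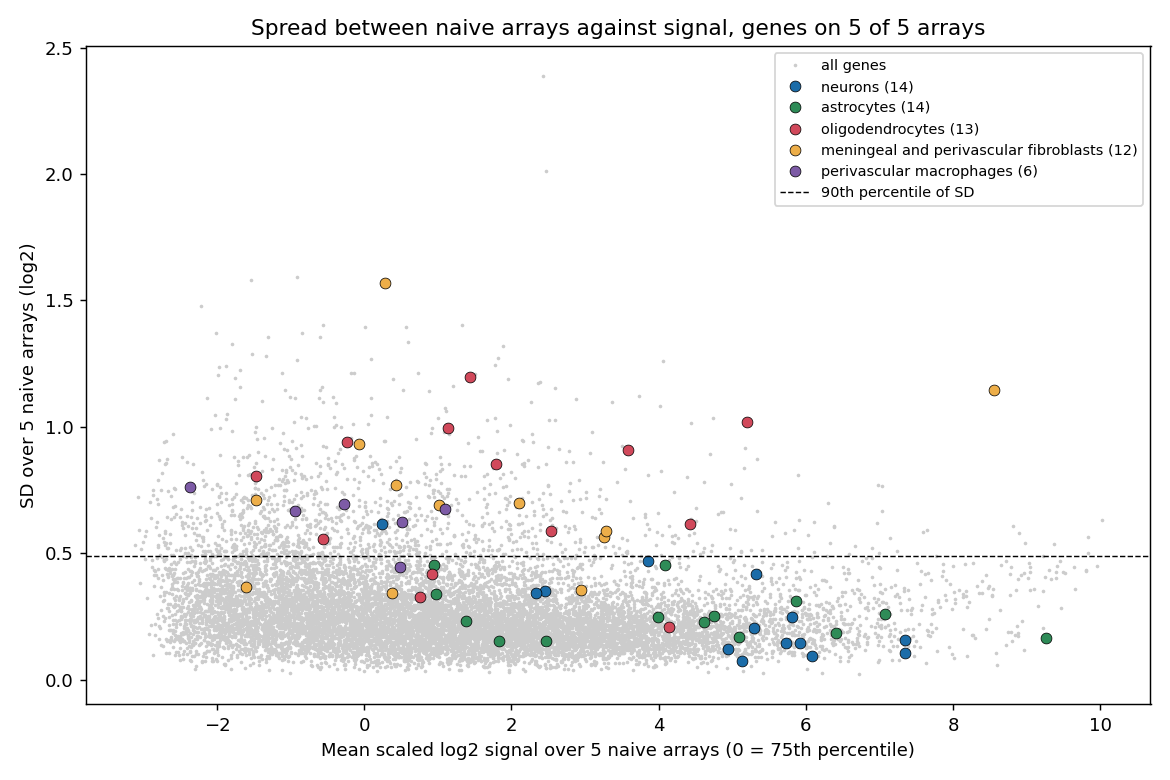
SD over the 5 naive arrays (vertical axis, log2) against mean scaled log2 signal (horizontal axis), 1 point per gene on 5 of 5 arrays, with the genes of 5 marker lists coloured and the 90th percentile of SD dashed. Neurons and astrocytes lie mostly under the dashed line, and 10 of 13 oligodendrocyte genes and 9 of 12 fibroblast genes lie over it.

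The 30 most variable genes fell into a few patterns of arrays. Pde5a, a cyclic GMP phosphodiesterase, had the largest SD (2.39) and read 3.67, 4.36, 4.44, -0.23 and -0.11, and Slc49a4 read 3.44, 4.06, 4.27, 0.23 and 0.36, so that both were lower on the second scan day than on any array of the first. The olfactory receptor genes Olfr441, Olfr681, Olfr362 and Olfr1500, with Emilin3, Creb3l1, Ahnak and Mrgprg, had the same order of days. Atp6ap1, Gpr37l1, Pip4p1 and Psap went the other way with naive 3 lowest; Psap, the precursor of the lysosomal saposins, read 4.07, 3.44, 2.29, 5.30 and 5.20. A further pattern was that of the meningeal list: Prg4, Ecrg4, Sphk1, Thbd, Adamts2, Bche, Cnn1 and Ptgis were each highest on naive 3, as Ogn was, and Thbd, the endothelial and meningeal thrombomodulin, read -0.53, -0.99, 2.33, 1.59 and 0.46. Cdh20 and Unc13d were high on naive 2 alone, and Pnp2 and Hps3 on naive 3 alone. Of the 30 genes 20 were highest on naive 3, where 37.9% of all genes were highest. Adamts2 and Ahnak have probes apart. Leaving out naive 3 kept 14 of the 30 and leaving out naive 2 kept 18.

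**Figure D5:**
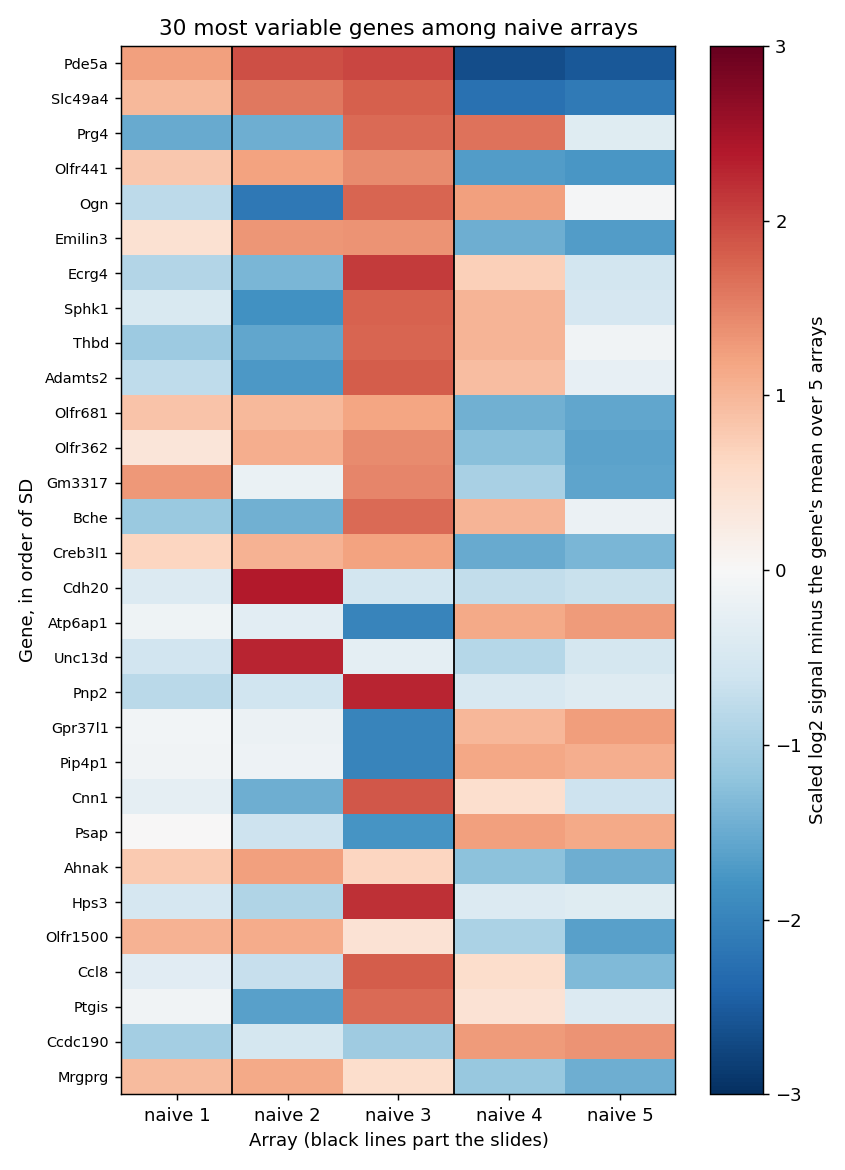
The 30 most variable genes (rows, in order of SD) on the 5 naive arrays (columns, black lines between slides), coloured by scaled log2 signal minus the gene's mean. Pde5a and Slc49a4 are low on naive 4 and naive 5, the genes from Ecrg4 to Adamts2 are high on naive 3 and low on naive 2, and Cdh20 and Unc13d are high on naive 2 alone.

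Scan day was therefore tested as a batch within the naive mice, 3 arrays against 2. In limma with Benjamini-Hochberg adjustment, 1481 of 12985 genes (11.4%) differed between the days at the 0.05 threshold, 746 higher (5.75%) and 735 lower (5.66%) on the second. With normexp background correction and quantile normalisation the split was 888 higher and 564 lower. Pde5a was lower by a log2 difference of -4.32 (SE 0.24, limma adjusted p = 0.00281), Olfr681 by -2.49 (SE 0.16, limma adjusted p = 0.00315), and Fam13c by -1.53 (SE 0.13, limma adjusted p = 0.0049); Olfr681 and Fam13c have probes apart. Ccdc190 was higher by 2.18 and Slc7a11, the cystine carrier, by 1.58, both with a limma adjusted p of 0.0049. Rises also included Rgs5 of pericytes (1.33) and the PACAP precursor Adcyap1 (0.81), with limma adjusted p of 0.0175 and 0.0198, and Crh (0.61, limma adjusted p = 0.0448). Falls included Oprm1 on its bright probe (-0.81, limma adjusted p = 0.0202), Kcna7 (-1.49, limma adjusted p = 0.00627) and Pvalb, the marker of fast-spiking interneurons (-0.60, limma adjusted p = 0.0351). Of the 13 oligodendrocyte genes 0 were called (11.4% of all genes were), and of the 12 fibroblast genes Fmod was higher and Slc22a6 lower. Without naive 5, Pde5a, Olfr681, Slc49a4 and Olfr441 were the genes still called, all lower, and the other differences named here missed the threshold. Of the 8 list members named, 5 kept the call without naive 1, 2 (Rgs5 and Kcna7) without naive 2, 8 without naive 3 and 0 without naive 4. The count depended on single arrays: it was 1007 without naive 1, 238 without naive 2, 3796 without naive 3, 56 without naive 4 and 4 without naive 5. Scan day, slide and mouse cannot be told apart here, since the second day holds 1 slide with 2 mice.

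Signals on a single array were a further form of variation. By a rule chosen after the values were seen, in 227 genes the brightest array was well above background and over 2 log2 units above the next, 44 on naive 1, 58 on naive 2, 62 on naive 3, 30 on naive 4 and 33 on naive 5. Arrays that were not above background give only a bound. Cdh23, a cadherin of hair cells, read 1.21 on naive 3 and -5.06 or less elsewhere, Defb13, a defensin, 0.87 on naive 2, and Ptgir, the prostacyclin receptor, 0.44 on naive 1. Xist, the RNA that silences an X chromosome, was of this kind: 1 probe read -5.22, -5.27, 0.01, -6.23 and -6.33, and its other probe was above background on no array. The Y-linked genes Ddx3y (0.14, 0.37, 0.90, 0.26 and 0.85) and Eif2s3y (0.08, 0.28, 0.93, 0.60 and 0.11) were above background on all 5 arrays, naive 3 included. The Y-linked Uty was on 2 arrays, with its lowest value on naive 3 (-4.71), which was not well above background there. Its other probe, on no array, was lowest on naive 4 (-5.10). Kdm5d, also Y-linked, was on none.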

How the data were processed

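Signals came from 1-colour Agilent arrays, 1 per mouse, scanned and quantified with Agilent Feature Extraction 11.0.1.1, per the submitters' processing notes. The deposited scanner files give a processed intensity for each spot, background-subtracted by that software per the file headers. Control spots and outlier spots were left out, and the intensities of the spots of a probe were averaged. Then log2 was taken, and each array's 75th percentile over probes was set to 0. The authors' deposited series table is on the same log2 scale and is offset from these values by 1 constant per array. Probe accessions come from the scanner files, and gene symbols from RefSeq where an accession belonged to 1 symbol. This named 27503 of 55681 probes, for 20880 genes with complete values. Probes without such a match were not used. A gene was above background if any of its probes was flagged so by the scanner software, and its level is that of its brightest probe. Spread was taken over 12985 genes whose brightest probe was above background on 5 of 5 arrays. The scan day comparison used limma 3.58.1 in R 4.3.3 with Benjamini-Hochberg adjustment and a threshold of 0.05, two-sided. Its code was run on simulated data with independent noise and no slide or array effect. That run cannot vouch for the calls in the real arrays. With so few arrays the estimates are imprecise. The limma p-values set the difference between scan days against the spread of arrays within a day. Because scan day, slide and mouse cannot be told apart, these p-values do not isolate the spread between mice.

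Named genes are the 30 brightest and 30 most variable genes, the 10 most and 10 least variable genes above the 75th percentile, the bright, undetected and most variable members of 47 gene lists, and the 10 smallest p in each direction between scan days; other list members are examples. The members and lists were chosen with earlier results of these data known. Alternatives covered detection flags, scaling, background correction, probe choice, filters and leaving out each array. Some genes counted in these totals are not reported here by name.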

Additional observations from a re-analysis of the deposited data

Results flagged for a closer look

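In 32 of 716 sets of 5 arrays tested (4.47%), 1 array lay so far from the other 4 that the gap exceeded 0.71 of the whole range (Dixon's critical value); chance gives about 5%. Of these, 14 were high and 5 low on naive 3, against 13 on the other 4 arrays together, and their causes were not tested.

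Of the immediate early genes 7 of 18 were highest on naive 3, as were 37.9% of all genes. The histamine receptor Hrh3 was at 5.13 (others 4.19 to 4.46) on that array, the activity gene Jund at 5.74 (others 5.14 to 5.25), Homer1 at 3.33, Ier5 at -0.50 and Fkbp5 at 2.47. For Homer1 and Ier5 this holds on the brightest probe only. Every other Homer1 probe was lowest on naive 3 (1.96, 1.13, 0.79 and -0.88), as was the other Ier5 probe (-2.87). The cortical transcription factor genes Lmo4 (7.07), Cux1 (2.74) and Rorb (2.65), the receptor gene Npy1r (2.48) and the potassium channel genes Kcnd3 (4.25) and Kcnj2 (-1.01) were high as well, as were Pnp2 (0.95), Hps3 (0.30) and Xist (0.0076). The other probes of Lmo4 (1.72), Rorb (0.55) and Kcnd3 (-2.38) were instead lowest on naive 3. Another Cux1 probe was highest there (-0.64), but the dimmest was highest on naive 2 (-1.74, against -2.01 on naive 3). Low on the same array were the GABA-A subunit gene Gabra2 at 1.27 (others 1.99 to 2.28), Grm8 at 0.28 and Rora at 0.18.

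On naive 2, Cdh20 (0.58) and Unc13d (0.75) were high, and Map2 (3.03), Csf1 (-0.045) and Pdyn (-5.23, not well above background there) were low. On naive 1, Syt1 (7.61), the vesicular acetylcholine transporter gene Slc18a3 (-0.89) and Glra1 (-1.22) were high, and the median of the inflammatory cytokine and chemokine list was low at 1.45 (others 1.78 to 1.84). On naive 4, Scn4a (-1.37) was low. On naive 5, Cacna2d4 (-2.61) was high and Hrh4 (-1.08) low. Lmo4, Cux1, Kcnd3, Homer1 and Csf1 have probes over 3 log2 units apart.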

How the results depend on the processing

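Counts of detected genes depended on the flag: with a positive and significant signal as the requirement, the genes on none of the 5 arrays fell in number from 4911 to 1538, and those on 5 of 5 were 16138. Without 1 array in turn these counts ranged from 4968 to 5291 and from 13004 to 13498. Of the 30 brightest genes, 12 were kept with the mean of a gene's probes and 10 with its dimmest probe, an alternative chosen after seeing the data. Of the 30 most variable genes, 13 were kept with normexp background correction, 13 among genes above the 75th percentile only, 5 with a filter on 3 arrays, 16 with SD relative to the trend on signal, 14 with the pooled SD within slides and 6 with the dimmest probe. Without 1 array in turn, 14 to 26 were kept. The median SD ranged from 0.16 to 0.27 over all alternatives. Genes called between scan days numbered 4291 without a filter (811 higher, 3480 lower) and 880 with a filter on 3 arrays (362 higher, 518 lower), and from 4 to 3796 without 1 array in turn. The higher and lower calls were 77 and 161 without naive 2, 2421 and 1375 without naive 3, 5 and 51 without naive 4, and 0 and 4 without naive 5 (1940 genes at an unadjusted limma p under 0.05). Of the scan day differences, those of the genes with the 10 smallest p in each direction lost their call in 24 of 240 comparisons with an alternative, and those of the 8 list members named in 29 of 96 (chosen after seeing the data); 0 reversed. The causes were not tested. Arrays of the first scan day were dimmer, which limits detection there. No paired analysis was possible because a single group was described.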
